A study of Mus musculus with 6 samples.

Results

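Iron storage, export and heme breakdown were examined through 10 of the 15168 genes in the count table of young and aged Day 3 wound macrophages. The genes were picked by symbol: the ferritin chains Fth1 and Ftl1, the ferritin receptor gene Ncoa4, the transferrin receptor gene Tfrc, the metal transporter genes Slc11a2 and Slc11a1, the iron exporter gene Slc40a1, the ferroxidase gene Cp, and the heme-degrading enzyme genes Hmox1 and Blvrb. All 10 symbols were found, and 9 of them were abundant enough to be among the 11878 genes tested, Cp being the exception. RNA was sequenced in bulk from CD45+ CD11b+ CD64+ F4/80+ cells sorted from dorsal skin wounds of female, wild-type C57BL/6J mice on day 3 after full-thickness wounding. Young mice were 12 weeks old and aged mice 24 months old. There were 3 samples of each age, carrying the set letters A, B and C. Mice of both ages were wounded under isoflurane and given buprenorphine for pain relief. The paper allows for a small share of neutrophils among the sorted cells, Ly6G not being among the sort markers. The labels do not say whether a sample came from 1 animal or several, so p-values measure only the spread between these samples, which may be technical.

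Macrophages take up dying erythrocytes and recycle their iron. Heme oxygenase 1 opens the heme ring and releases the iron together with biliverdin, which biliverdin reductases turn into bilirubin, and the iron is then stored in a ferritin shell of heavy and light chains or leaves the cell through ferroportin, the product of Slc40a1. Much of this is controlled after transcription: iron regulatory proteins bind a hairpin called the iron-responsive element, which blocks translation when it lies in a 5′ UTR and protects the transcript from decay when it lies in a 3′ UTR, so a transcript level is not a protein level for these genes.

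The hairpins are shown first because they mark the members in which a strict search found this element. They were found in GENCODE transcripts on GRCm38 by a search of the sense strand for the loop CAGTGN (N being any base but G), below it a stem of 5 pairs, an unpaired C, and a lower stem with at least 3 of 5 pairs. Capitals mark the 6 loop bases, and each sequence is printed 5′ to 3′ along the transcript as DNA. In the 5′ UTR of Fth1 (chr19:9982733-9982759, plus strand), of Ftl1 (chr7:45459780-45459806, minus strand) and of Slc40a1 (chr1:45925466-45925492, minus strand) there was 1 match each:
Fth1: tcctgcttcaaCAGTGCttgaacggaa
Ftl1: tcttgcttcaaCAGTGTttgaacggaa
Slc40a1: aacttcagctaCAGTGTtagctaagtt
The 3′ UTR of Tfrc held 4 matches on the plus strand of chromosome 16, at chr16:32631220-32631246, chr16:32631599-32631625, chr16:32631664-32631690 and chr16:32631711-32631737 in this order:
Tfrc element 1: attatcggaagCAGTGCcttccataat
Tfrc element 2: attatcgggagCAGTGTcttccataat
Tfrc element 3: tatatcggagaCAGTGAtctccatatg
Tfrc element 4: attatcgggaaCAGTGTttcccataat

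Matches were rare: a 5′ UTR match was found in 7 of 21875 protein-coding genes (0.032%) and a 3′ UTR match in 23 (0.105%). The other 6 members (Ncoa4, Slc11a1, Slc11a2, Cp, Hmox1 and Blvrb) held no match in the transcripts searched, the protein-coding ones of the GENCODE basic set. This says only that the pattern is not in them. A hairpin with a bulge in the 5-pair stem or with another loop would be missed. The search therefore does not show that any of the 6, Slc11a2 included, lacks an element. By the rule of the search all matches share the first 5 loop bases, CAGTG, while the last loop base and the stem bases vary between genes.

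Totals ran from 15270103 to 17927483 expected counts per sample, so that 1 count was worth 0.0553 to 0.0701 CPM (the count per size of the library, scaled to a fixed total by TMM factors of 0.904 to 1.11). Transcripts of the sort proteins were present in every sample: Ptprc (CD45) and Fcgr1 (CD64) did not pass the test, Itgam (CD11b) rose (log2 fold change 0.99, edgeR adjusted p = 0.00735) and Adgre1 (F4/80) fell by 0.69 on the log2 scale (edgeR adjusted p = 0.0292). Markers of other cells were low beside the 37008 to 54915 summed CPM of 8 macrophage genes. Lyz2 alone gave 16240 to 38843 CPM of that sum, so the sums do not measure the share of each cell type. Sums ran from 571 to 1379 CPM for 12 neutrophil genes, from 41.8 to 490 CPM for 6 erythroid genes, mostly globins, and from 0.741 to 66.6 CPM for 4 mast cell genes. Aged sample B stood apart with 126 CPM of 6 keratinocyte genes (0.719 to 2.03 elsewhere) and 119 CPM of 6 fibroblast genes (12.4 to 41.0 elsewhere). Sums over 4 endothelial genes were 9.91 to 11.2 CPM at 12 weeks and 25 to 30.5 CPM at 24 months. Pecam1 had the highest mean of the 4 at both ages and rose from 8.03 to 25.9 CPM (edgeR adjusted p = 0.0022). Kdr (1.95 and 1.46 CPM) and Cdh5 (0.429 and 0.127 CPM) had lower means in aged samples, and Tek (0.0587 and 0.234 CPM) a higher one. The 4 T and NK cell genes and 3 B cell genes found stayed at or below 12.9 CPM.

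Of the 9 members tested, 3 were higher and 1 was lower in the aged Day 3 wound macrophages. The transporter genes Slc11a1, Slc11a2 and Slc40a1 rose and the biliverdin reductase gene Blvrb fell (edgeR quasi-likelihood test, Benjamini-Hochberg adjusted p under 0.05 over all genes tested), while Fth1, Ftl1, Ncoa4, Tfrc and Hmox1 did not pass. Among all tested genes 9.73% were called higher and 7.97% lower, 1156 against 947 genes, a balance that turned with upper-quartile scaling (925 higher and 1195 lower). Slc11a2 and Blvrb also passed a fold change of 2, as 8.79% of all tested genes did. In 5 members every aged sample lay above every young one, against 19.2% of tested genes, and in 1 (Blvrb) every aged sample lay below, against 19.0%. The median log2 fold change was 0.54 over the 9 members and -0.02 over all tested genes. In bulk samples a lower share of cells that express a gene and less of its RNA per cell cannot be told apart.

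**Figure D1:**
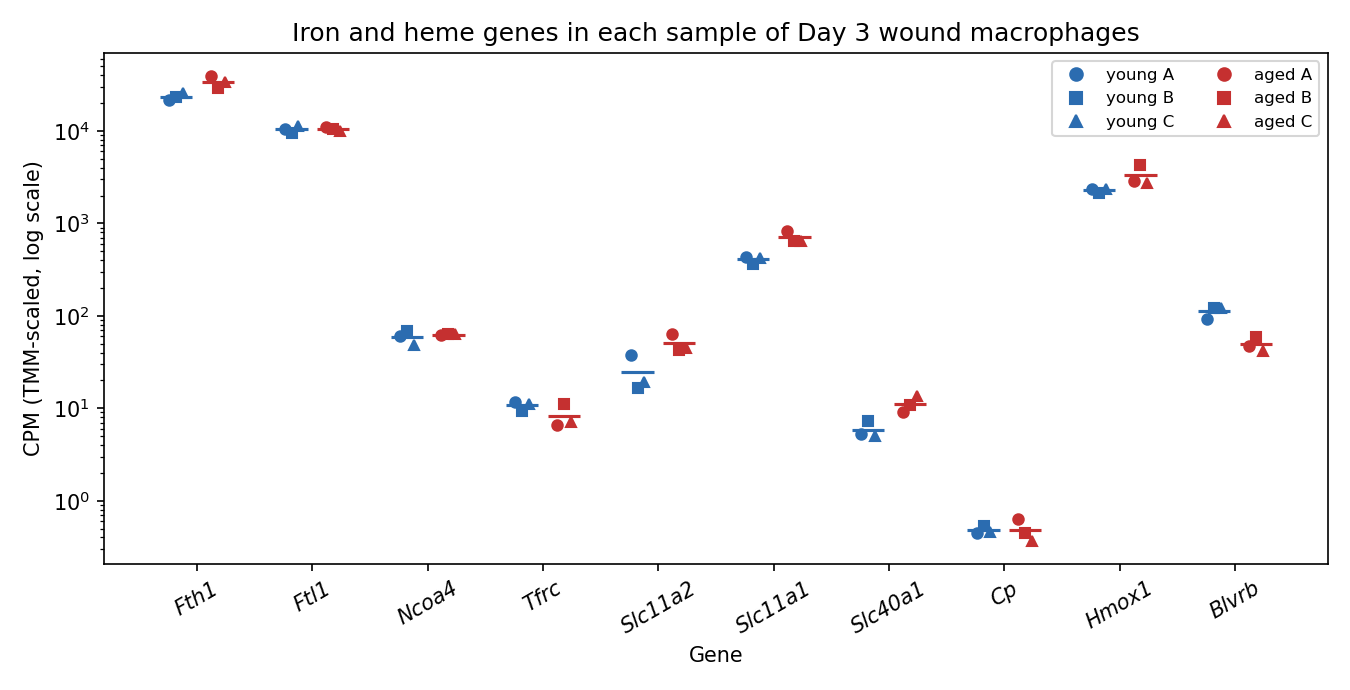
Level of each of the 10 genes in the 3 young (blue) and 3 aged (red) samples, in CPM scaled by TMM factors on a log axis; each symbol is 1 sample and the bar is the mean of 3. The levels span from below 1 CPM for Cp to at least 21655 CPM for Fth1, and the ages do not overlap for Fth1, Slc11a2, Slc11a1, Slc40a1, Hmox1 and Blvrb.

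Per kilobase of transcript the members ran over more than 5 orders of magnitude in the same order at both ages for the upper 6 genes. Fth1 stood highest, at a mean of 25278 CPM per kilobase in young and 36706 in aged samples, followed by Ftl1 without its copy on another chromosome (10763 and 10930.3), Hmox1 (1445 and 2109), Slc11a1 (176 and 304), Blvrb (109 and 47.9) and Ncoa4 (17.7 and 18.8). Below them were Slc11a2 (8.08 and 16.6), Tfrc (2.2 and 1.69), Slc40a1 (1.74 and 3.33) and Cp (0.119 and 0.120). Ncoa4 and Slc11a2 overlapped in the aged samples, at 18.4 to 19.0 and 14.1 to 21.1 CPM per kilobase. Tfrc and Slc40a1 were neighbours in opposite order at the 2 ages, overlapping in young samples (1.92 to 2.41 and 1.47 to 2.18) and apart in aged ones (1.35 to 2.27 and 2.72 to 4.01).

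Fth1 (chromosome 19, 9980598 to 9985098, plus strand) encodes the ferritin heavy chain, which has the ferroxidase site that oxidises iron on its way into the shell. It was measured at 21655, 23137 and 25657 CPM in young samples A, B and C and at 39053, 29120 and 34128 CPM in aged samples A, B and C. Every aged sample was above every young one. By mean level Fth1 ranked 2 among the tested genes in young samples and 1 in aged samples. The young mean was 23483 ± 2024 CPM (SD, n = 3) and the aged mean 34100.1 ± 4967 CPM, and the log2 fold change was 0.54 (SE, the standard error, 0.21, 95% interval 0.07 to 1.0). It did not pass the edgeR quasi-likelihood test after Benjamini-Hochberg adjustment (adjusted p = 0.0977), and of 14 other settings it passed in DESeq2 (adjusted p = 0.0190) and limma-voom (adjusted p = 0.0460), with a range of 0.0190 to 0.234 over all of them.

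Ftl1 (chromosome 7, 45457944 to 45459884, minus strand) encodes the ferritin light chain, which lacks that site and helps the iron core to form. Its levels were 10608, 9406 and 11243 CPM in young samples A, B and C and 11128, 10584 and 10030 CPM in aged samples A, B and C. The ages overlapped, and the log2 fold change of 0.02 (95% interval -0.39 to 0.44) was smaller than its SE of 0.19 (edgeR adjusted p = 0.948).

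The light chain count was shared between 2 rows. Ftl1-ps1, a copy on chromosome 13 (74399694 to 74407346) whose transcript read here has 1 exon, was listed at 1.63 to 1.74 times the Ftl1 count in every sample. Its coding sequence is identical to that of Ftl1 at 550 of 552 bases (99.6%), and 85.4% of the 31-base words of the Ftl1 transcript occur in other genes. The same 27-base element was found in it as in Ftl1, at chr13:74406429-74406455 on the plus strand. How the reads of the light chain were split between the copies is therefore uncertain. Summed, the rows gave 28051, 25514 and 30771 CPM in young samples A, B and C and 29963, 28437 and 26389 CPM in aged samples A, B and C. The sums of young and aged samples overlapped again (log2 fold change 0.01, edgeR adjusted p = 0.985, a setting chosen after seeing the data). For Fth1, 12.9% of such words occur in other genes, but the only sharing row in the table, Gm6977, had 2628 counts in all against 2741506 for Fth1.

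The balance of heavy to light chain transcripts was higher in every aged sample. The ratio of Fth1 to Ftl1 was 2.04, 2.46 and 2.28 in young samples A, B and C and 3.51, 2.75 and 3.40 in aged samples A, B and C. The mean log2 ratio differed by 0.51, or 1.42-fold, and an exact two-sided permutation test gave p = 0.1, the smallest that 3 against 3 samples allow. Against the sum of both light chain rows the ratio was 0.772, 0.907 and 0.834 in young and 1.30, 1.02 and 1.29 in aged samples, a difference of 0.52 on the log2 scale (exact permutation p = 0.1). Heavy chain counts were therefore below the light chain counts in every young sample and above them in every aged sample. The 3 ferritin rows together took 5.30% to 5.59% of all counts in young and 5.47% to 6.45% in aged samples, ranges that overlap.

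**Figure D2:**
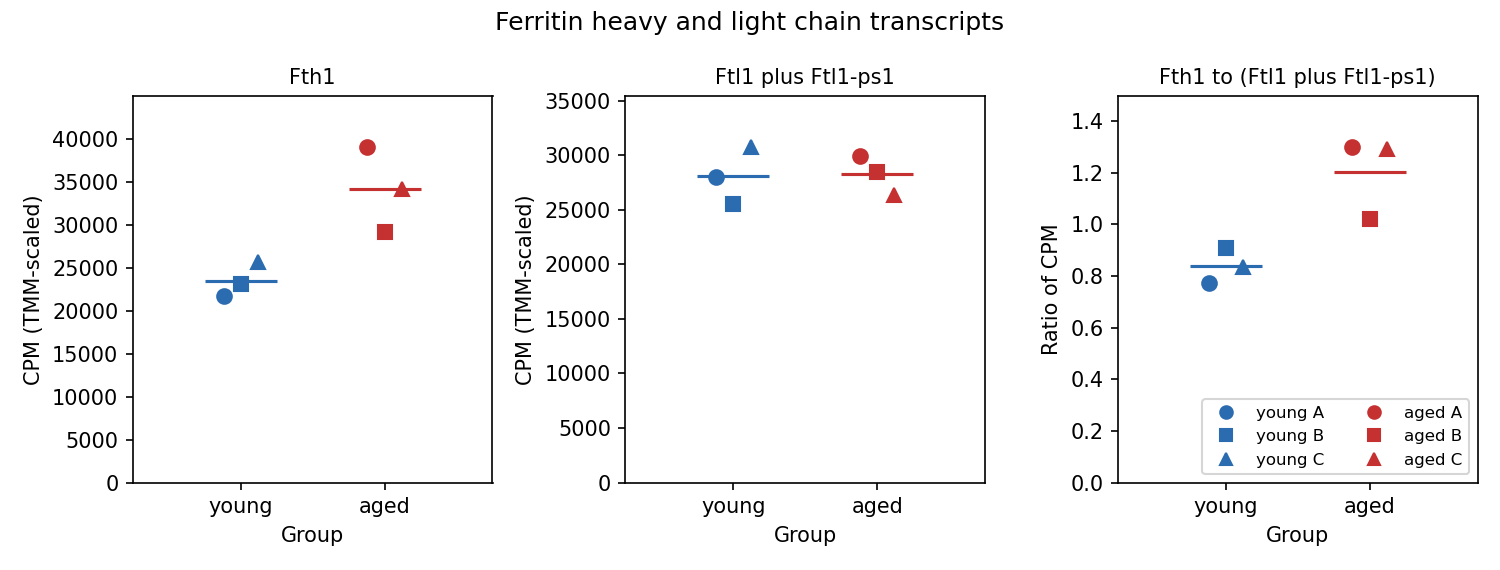
CPM of Fth1 (left), summed CPM of Ftl1 and its copy Ftl1-ps1 (middle) and the ratio of the former to the latter (right) in 3 young (blue) and 3 aged (red) samples, each axis from 0; bars are means. Fth1 is higher in all aged samples, the light chain sum overlaps between the ages, and the ratio lies below 1 in the young samples (0.772 to 0.907) and above 1 in the aged ones (1.02 to 1.30).

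Ncoa4 (chromosome 14, 32159865 to 32179855, plus strand) encodes the receptor that hands ferritin over to autophagy so that its iron can be reused. It was measured at 59.9, 69.3 and 48.4 CPM in young samples A, B and C and at 61.4, 63.2 and 63.5 CPM in aged samples A, B and C. The aged values lay within the young range, and the log2 fold change was 0.08 (SE 0.17, 95% interval -0.29 to 0.46, edgeR adjusted p = 0.762). Of the 31-base words of Ncoa4, 53.9% also occur in Gm6768, which has no row in the table, so its count is uncertain.

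Tfrc (chromosome 16, 32608920 to 32632794, plus strand) encodes the receptor that takes up transferrin-bound iron, and is the member with 4 elements in its 3′ UTR. Its levels were 11.8, 9.39 and 11.2 CPM in young samples A, B and C and 6.59, 11.1 and 7.17 CPM in aged samples A, B and C. Aged sample B lay within the young range and the other aged samples below it. The log2 fold change of -0.38 (SE 0.25, 95% interval -0.94 to 0.18) did not pass the edgeR test (adjusted p = 0.311), and it was -0.63 without aged sample B (adjusted p = 0.119).

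The natural resistance-associated macrophage protein genes rose together. Slc11a2 (chromosome 15, 100387898 to 100425072, minus strand) encodes DMT1, which carries ferrous iron out of the endosome into the cytosol. It was measured at 37.6, 16.4 and 19.3 CPM in young samples A, B and C and at 63.7, 42.7 and 44.4 CPM in aged samples A, B and C. All aged samples were above all young ones, young sample A being nearest to them, and the log2 fold change was 1.04 (SE 0.30, 95% interval 0.37 to 1.70, edgeR adjusted p = 0.0393). This call was lost with upper-quartile scaling (adjusted p = 0.0508) and in 4 of 6 fits that left out a sample: without young B, without young C, without aged A and without aged C the adjusted p was 0.127, 0.158, 0.103 and 0.0833.

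Slc11a1 (chromosome 1, 74375195 to 74386062, plus strand) encodes NRAMP1, which moves divalent metals across the phagosome membrane of macrophages and is known for its part in resistance to intracellular microbes. Its levels were 436 CPM (young A), 366 CPM (young B) and 419 CPM (young C) against 817 CPM (aged A), 652 CPM (aged B) and 642 CPM (aged C). No aged sample came near the young range, and the log2 fold change was 0.79 (SE 0.18, 95% interval 0.40 to 1.18, edgeR adjusted p = 0.0173). It was lost without young B, without young C and without aged C, where the adjusted p was 0.0647, 0.0801 and 0.0532, and it held in the other 11 settings. The summed level of the 12 neutrophil genes ran from 571 to 1018 CPM at the younger age and from 737 to 1379 CPM at the older one, 3 of 11 tested (Retnlg, Cxcr2 and Cd177) being higher and none lower, and Ly6g stood at 8.15 and 8.43 CPM. The part of these cells in the result was not tested.

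The coding sequences of Slc11a1 and Slc11a2 are identical at 70.6% of aligned bases, and few of their 31-base words occur elsewhere (3.76% and 0.92%). The ratio of Slc11a2 to Slc11a1 was 0.0864, 0.0453 and 0.0463 in young samples A, B and C and 0.0781, 0.0657 and 0.0694 in aged samples A, B and C. The ages overlapped (log2 difference 0.33, exact two-sided permutation p = 0.4, with 0.1 the smallest possible). Within each age sample A was the highest for both genes.

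Slc40a1 (chromosome 1, 45908068 to 45926523, minus strand) encodes ferroportin, the exporter of cellular iron. It was a low transcript, at 5.31, 7.33 and 4.95 CPM in young samples A, B and C and at 9.18, 10.9 and 13.5 CPM in aged samples A, B and C, or 75 to 219 counts a sample. Every aged sample was above every young one, and the log2 fold change was 0.93 (SE 0.25, 95% interval 0.38 to 1.49, edgeR adjusted p = 0.0319). The call was lost in 4 of 6 fits that left out a sample, namely without young A (adjusted p = 0.0540), without young C (0.132), without aged B (0.0541) and without aged C (0.126). Of the 6 tested genes with an element in the 5′ UTR, Slc40a1 was the one that passed, the others being Fth1, Ftl1, Ftl1-ps1, Alas2 (log2 fold change -1.49, edgeR adjusted p = 0.0734) and Serpina3g.

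Cp (chromosome 3, 19957054 to 20009145, plus strand) encodes ceruloplasmin, a copper ferroxidase that oxidises exported iron. It was scarce, with 8, 9 and 7 counts in young samples A, B and C and 9, 7 and 6 counts in aged samples A, B and C. The levels of 0.443, 0.528 and 0.462 CPM (young A, B and C) overlapped those of 0.631, 0.446 and 0.371 CPM (aged A, B and C), and a difference was not detectable at this depth. The related ferroxidase genes Heph and Hephl1 had no row in the table.

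Hmox1 (chromosome 8, 75093621 to 75100589, plus strand) encodes heme oxygenase 1. Its levels were 2330.4, 2142 and 2330.2 CPM in young samples A, B and C and 2883, 4331 and 2712 CPM in aged samples A, B and C. Every aged sample was above every young one, and aged sample B was far above the other aged samples. It ranked 56 among the tested genes in young and 43 in aged samples, and the log2 fold change of 0.55 (SE 0.21, 95% interval 0.07 to 1.02) did not pass the edgeR test (adjusted p = 0.101). Aged sample B also had the highest keratinocyte and fibroblast sums. The macrophage genes Cd163 and Mrc1, named after their values were seen, were highest in it too, at 141 CPM (27.6 and 38.8 CPM in aged A and C) and 273 CPM (94.2 and 144 CPM). The part of any of these in its Hmox1 level was not tested. Without it the log2 fold change was 0.32 (adjusted p = 0.277). DESeq2 was the one setting of 14 in which Hmox1 passed (adjusted p = 0.0423).

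Blvrb (chromosome 7, 27447978 to 27466144, plus strand) encodes biliverdin reductase B, which also reduces flavins and is plentiful in erythrocytes. It was measured at 92.8, 121 and 122 CPM in young samples A, B and C and at 47.4, 58.7 and 41.6 CPM in aged samples A, B and C. Every aged sample was below every young one, and the log2 fold change was -1.19 (SE 0.19, 95% interval -1.60 to -0.77, edgeR adjusted p = 0.00590). It was the one member that passed in all 14 other settings, with adjusted p from 1.95e-06 to 0.0446.

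Globin transcripts were lower in the aged samples as well. Of the 10 erythroid markers listed 6 had a row, 5 were tested and 4 were lower (Hba-a1, Hba-a2, Hbb-bs and Hbb-bt, edgeR adjusted p from 0.0231 to 0.0384). Slc4a1, Ahsp, Epb42 and Klf1 had no row. The summed globins stood at 151, 484 and 419 CPM in young samples A, B and C and at 40.7, 150 and 105 CPM in aged samples A, B and C. The ages did not overlap in this sum, young sample A and aged sample B being next to each other. The part of erythroid RNA in the lower Blvrb was not tested. The stated gate was CD45+ CD11b+ CD64+ F4/80+, and globin transcripts were counted in every sorted sample. The study's antibody panel also held TER119, a marker of erythroid cells, though the stated sort gate does not name it.

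**Figure D3:**
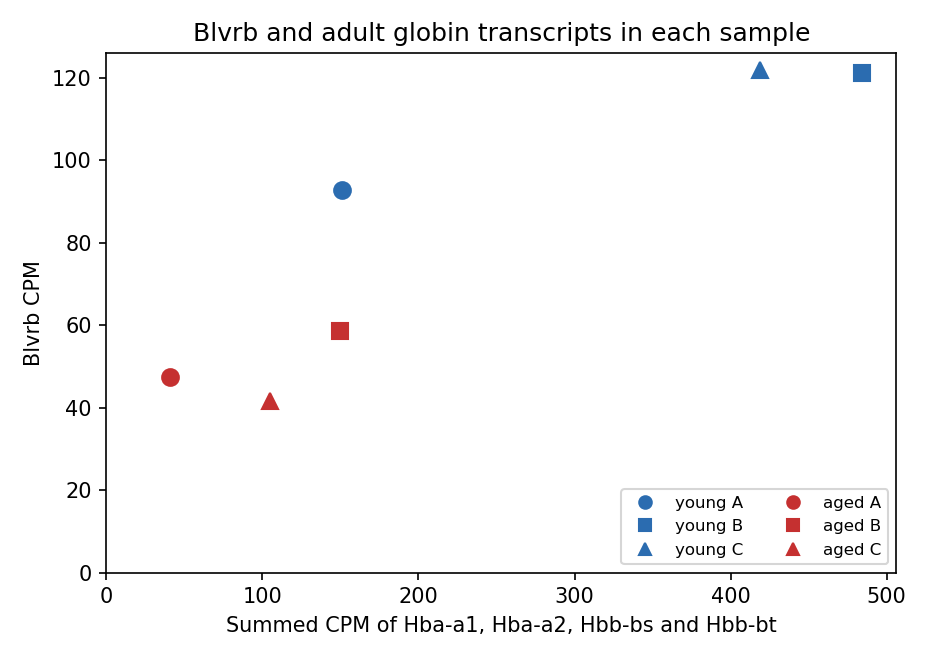
Blvrb against the summed level of 4 adult globin transcripts, both in CPM on axes from 0, with 1 symbol for each of the 3 young (blue) and 3 aged (red) samples. Both quantities are lower in every aged sample than in every young one, with globins at 40.7 to 150 against 151 to 484 CPM and Blvrb at 41.6 to 58.7 against 92.8 to 122 CPM.

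**Figure D4:**
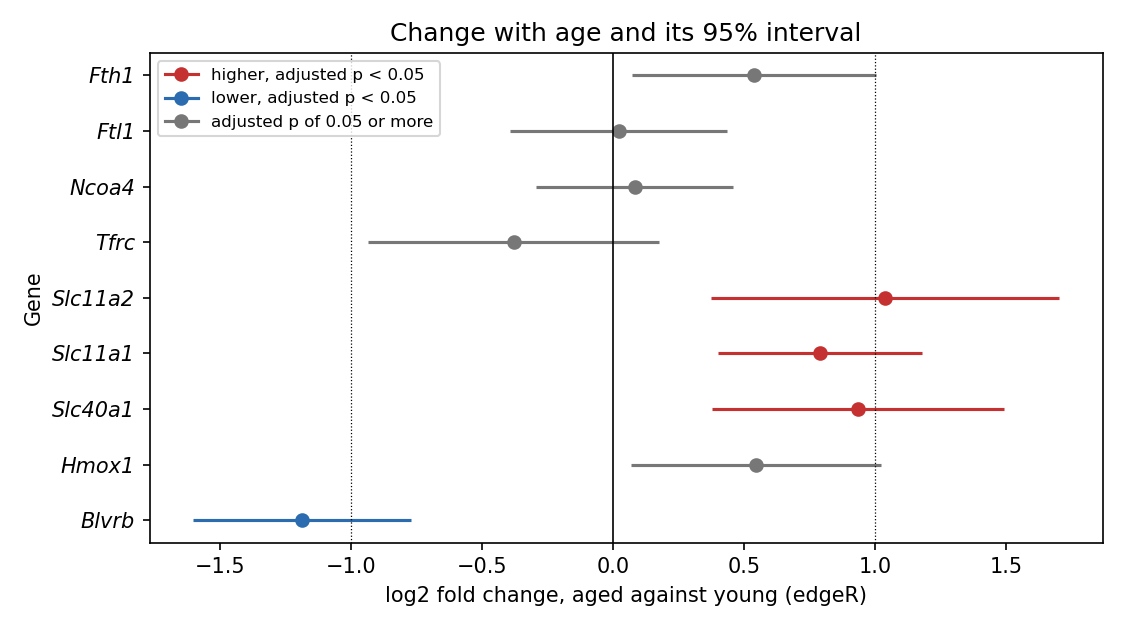
Log2 fold change of aged against young samples for the 9 tested members, with 95% intervals from edgeR; red and blue mark adjusted p under 0.05, grey the rest, and dotted lines a fold change of 2. The intervals of Slc11a2, Slc11a1 and Slc40a1 lie above 0 and that of Blvrb below it, and those of Fth1 and Hmox1 exclude 0 narrowly (from 0.07) without passing the adjusted threshold.

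Members did not follow a common pattern within an age. After removing the age means, the correlation over the 6 samples was 0.77 between Slc11a1 and Slc11a2 and 0.55 between Fth1 and Slc11a1, but -0.87 between Slc11a1 and Slc40a1 and -0.58 between Slc11a2 and Slc40a1. Tfrc and Hmox1 were closest (0.94), both being highest among aged samples in B. These are descriptions of 6 libraries that share depth and scaling.

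The rest of the pathway was read from 7 lists of 76 genes, of which 65 had a row and 61 were tested. In all, 9 were higher and 7 lower in aged samples, with a median log2 fold change of -0.06 against -0.02 over all tested genes. The counts are 9 of 61 and 7 of 61 beside 9.73% and 7.97% of all tested genes. By list the median was -0.14 for uptake and endosome, 0.23 for heme and hemoglobin uptake, 0.15 for sensing and regulation, -0.34 for chaperones and ferroxidases, 0.52 for heme breakdown and its regulators, -0.44 for heme synthesis and -0.11 for mitochondrial iron.

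Of 10 tested genes of iron uptake and the endosome, 3 were higher and 1 lower. Slc39a14, a zinc and iron importer also called ZIP14, rose from 47.6 ± 22.3 to 150.1 ± 9.27 CPM (log2 fold change 1.66, SE 0.29, edgeR adjusted p = 0.00847). Steap4, a metalloreductase, rose from 6.25 ± 0.756 to 14.8 ± 3.17 CPM (log2 fold change 1.24, edgeR adjusted p = 0.0106), while Steap3, the endosomal ferrireductase of erythroid cells, fell from 8.13 ± 1.68 to 3.41 ± 0.573 CPM (log2 fold change -1.25, edgeR adjusted p = 0.0160). Lcn2, a siderophore-binding protein that neutrophils also make, rose from 65.7 ± 17.6 to 130.7 ± 50.2 CPM (log2 fold change 0.99, edgeR adjusted p = 0.0418), a call lost with upper-quartile scaling (adjusted p = 0.0541) and with the set letter as a block (0.0720), and without young A, young B, young C, aged A or aged C (0.0790, 0.0956, 0.1, 0.119 and 0.107). Without young C the adjusted p was 0.0586 for Slc39a14, 0.0613 for Steap4 and 0.0883 for Steap3, and without aged C it was 0.0621 for Steap3. Trf, which encodes transferrin, was at 437 and 699.6 CPM and did not pass (edgeR adjusted p = 0.0523).

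Of 7 tested genes of heme and hemoglobin uptake and transport, 1 was higher, 1 lower and 5 did not pass. Slc46a1, a heme and folate transporter, fell from 6.05 ± 1.18 to 1.68 ± 1.14 CPM (log2 fold change -1.84, edgeR adjusted p = 0.0208), whereas Hp, which encodes the hemoglobin scavenger haptoglobin, rose from 173 ± 15.9 to 366 ± 191 CPM (log2 fold change 1.08, edgeR adjusted p = 0.0405). The Hp levels in aged samples A, B and C were 576, 202 and 320.4 CPM, and without aged A the log2 fold change was 0.60 (adjusted p = 0.0993). The call was also lost without young A, young B, young C or aged C (adjusted p = 0.0732, 0.103, 0.133 and 0.0843), with upper-quartile scaling (adjusted p = 0.0525) and with the set letter as a block (adjusted p = 0.0648). Slc46a1 lost its call without young B, young C or aged C (adjusted p = 0.0623, 0.0936 and 0.0785), and without aged B its log2 fold change was -2.55. Neutrophils make haptoglobin too, and the neutrophil sums were 1336, 737 and 1379 CPM in these samples; their part was not tested. Cd163, the receptor for the haptoglobin and hemoglobin complex, had the largest log2 fold change of the list (1.46) but did not pass (edgeR adjusted p = 0.0739), with 141 CPM in aged B and 27.6 and 38.8 CPM in the other aged samples.

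Most genes of iron sensing and regulation did not pass the test. Of 9 tested, Fbxl5, the iron-binding subunit that marks iron regulatory protein 2 for destruction, was the one called, rising from 118 ± 26.3 to 228 ± 18.5 CPM (log2 fold change 0.95, edgeR adjusted p = 0.0130). The iron regulatory proteins themselves, encoded by Aco1 and Ireb2, had log2 fold changes of 0.10 and 0.27 (edgeR adjusted p = 0.751 and 0.529). Hfe had the lowest value of the list (-0.65, edgeR adjusted p = 0.0512). Of 5 iron chaperone and ferroxidase genes, Glrx3, a monothiol glutaredoxin, fell from 36.9 ± 4.24 to 23.4 ± 0.793 CPM (log2 fold change -0.66, edgeR adjusted p = 0.0248), and Frrs1 had the highest value without passing (0.36, edgeR adjusted p = 0.161). Without young C the adjusted p of Fbxl5 was 0.0762. Glrx3 passed in 1 of 6 fits that left out a sample, its adjusted p being 0.0611, 0.117, 0.0583, 0.0540 and 0.0923 without young B, young C, aged A, aged B and aged C.

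Heme breakdown beyond the members showed the same direction for the second reductase. Blvra, which encodes the main biliverdin reductase, fell from 105 ± 10.9 to 64.0 ± 4.38 CPM (log2 fold change -0.71, edgeR adjusted p = 0.0165), so both biliverdin reductase genes were lower in aged samples. Por, which donates electrons to heme oxygenase and to cytochromes P450, rose from 370.3 ± 118 to 749.2 ± 93.6 CPM (log2 fold change 1.02, edgeR adjusted p = 0.0200). Mafg, a small Maf partner of NRF2 and BACH1, rose from 42.1 ± 12.5 to 86.4 ± 24.3 CPM (log2 fold change 1.03, edgeR adjusted p = 0.0238). Blvra lost its call without young C or aged C (adjusted p = 0.0891 and 0.0731), Por without young B, young C or aged C (0.0636, 0.0937 and 0.0660), and Mafg without young B, young C or aged A (0.0841, 0.107 and 0.0605). The other 6 of 9 did not pass, among them Nfe2l2 (0.52, edgeR adjusted p = 0.0588), which encodes NRF2, Bach1 (0.52, adjusted p = 0.101) and the constitutive oxygenase gene Hmox2 (-0.32, adjusted p = 0.194).

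Heme synthesis changed at its first steps. Alas1, the rate-limiting enzyme outside erythroid cells, rose from 159 ± 27.0 to 530.3 ± 169 CPM (log2 fold change 1.74, SE 0.26, edgeR adjusted p = 0.00429), with 336 CPM in the lowest aged sample and 190 CPM in the highest young one. Alad, the enzyme of the next step, fell from 9.34 ± 1.98 to 3.35 ± 0.632 CPM (log2 fold change -1.47, edgeR adjusted p = 0.00971). The other 7 of 9 genes did not pass. Alad and Steap3 are abundant in erythroid cells, and both were lower in the aged samples, as the globin sums were. Slc25a37, the mitochondrial iron importer of erythroid cells, was higher (log2 fold change 0.87). Young A and aged B had globin sums of 151 and 150 CPM. In these 2 samples Alad stood at 7.30 and 4.08 CPM and Steap3 at 6.42 and 4.01 CPM. The part of erythroid RNA in these genes was not tested. Without young C the adjusted p of Alad was 0.0549.

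Of 12 mitochondrial genes of iron and iron-sulfur clusters, 1 was higher and 2 were lower. Slc25a37, the iron importer mitoferrin 1, rose from 11.8 ± 0.856 to 21.6 ± 2.63 CPM (log2 fold change 0.87, edgeR adjusted p = 0.0151). Hscb, a co-chaperone of cluster assembly, fell from 6.81 ± 1.11 to 2.54 ± 0.435 CPM (log2 fold change -1.42, edgeR adjusted p = 0.0122), and Cisd1, a cluster protein of the outer membrane, fell from 17.2 ± 2.49 to 10.7 ± 0.242 CPM (log2 fold change -0.68, edgeR adjusted p = 0.0367). Without young C the adjusted p was 0.0680 for Slc25a37, 0.0741 for Hscb and 0.162 for Cisd1, and without aged C it was 0.0520 for Slc25a37. Cisd1 also lost its call without young B, aged A, aged B or aged C (0.0634, 0.0718, 0.0729 and 0.121). Of the 16 called genes of these lists, Alas1 alone passed in all 6 fits that left out a sample; 0 of the 16 changed sign in any setting.

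**Figure D5:**
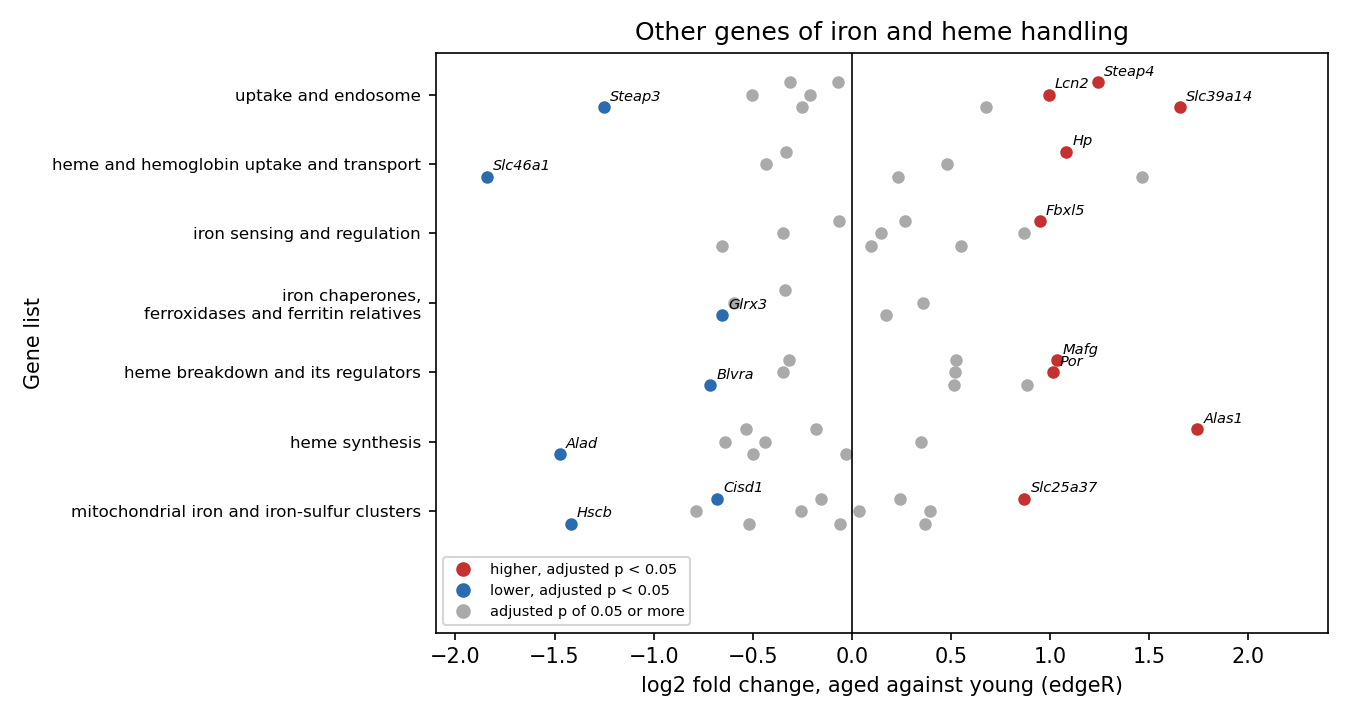
Log2 fold change of aged against young samples (edgeR) for the 61 tested genes of 7 lists of iron and heme handling, 1 point a gene and 1 row a list; red and blue mark adjusted p under 0.05, and the named points are the 16 called genes. Called genes lie on both sides of 0 in 5 of the lists, from -1.84 (Slc46a1) to 1.74 (Alas1).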

How the data were processed

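Sorted Day 3 wound macrophages of 3 young and 3 aged samples were sequenced after SMART-Seq v4 amplification. STAR 2.7.3a was used by the authors for alignment to mm10, and reads were quantified on Ensembl release 102 transcripts in Partek, and the authors deposited the resulting expected counts per gene without normalisation; genes with at least 10 counts over the 6 samples are listed. Whether the strand was used is not given in the sources used here. Their second table holds the authors' DESeq2 comparison (p-values, fold changes and normalised values) and was not used.

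The design had assumed raw counts. The expected counts (30.4% to 33.9% of genes a sample were not whole numbers) were rounded and tested in R 4.3.3 with edgeR 4.0.16 (TMM scaling, filterByExpr by age, quasi-likelihood test without a block, Benjamini-Hochberg adjustment over 11878 genes). A call is an adjusted p under 0.05. Library sizes for CPM were scaled by TMM, and a prior count of 2 was added for log2 CPM. The test was checked on simulated data. Alternatives were DESeq2 1.42.0, limma-voom (limma 3.58.1), other scalings and filters, a block on the set letter, and fits with 1 sample omitted; summing Ftl1 with Ftl1-ps1 was added after seeing the data. Named were the members, the called genes and the highest and lowest gene of each pathway list, and the sort markers; Trf, Aco1, Ireb2, Nfe2l2, Bach1, Hmox2 and the genes named beside elements or shared words were chosen after their values were seen. The members and lists were chosen with earlier results of these data known. Gene ends are given as the last base, 1 less than the table's stop. Transcripts were those of GENCODE M21 (GRCm38, the same build), 1 principal transcript a gene, read with Python 3.11.15 and pandas 2.3.3 and plotted with matplotlib 3.10.9. The values of 1 erythroid marker are not reported here.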

Additional observations from a re-analysis of the deposited data

How the results depend on the processing

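Results are the values of the edgeR test. DESeq2 and limma-voom brought their own scaling, filter or sample weights, and the filter on low counts was applied anew in each fit without a sample. Members called higher numbered 3; DESeq2 gave 5, and leaving out a sample gave 0 to 2. The 0 arose in edgeR without young C and without aged C, where 4 members were higher at an unadjusted p under 0.05 in each, and leaving out young B gave 1. Members past a 2-fold change numbered 2, or 3 with limma-voom, 1 with upper-quartile scaling and 1 to 2 without a sample. Among the other genes, 9 higher and 7 lower became 14 and 12 with limma-voom and 7 and 9 with upper-quartile scaling, which moved the median of all tested genes from -0.02 to -0.09 (log2). Leaving out a sample gave 1 to 12 higher and 0 to 8 lower, the fewest without young C (12 higher and 10 lower unadjusted). Over all genes 1156 higher and 947 lower became 1933 and 1713 with limma-voom and 925 and 1195 with upper-quartile scaling, while omitting young A gave 1574 and 1128, young B 435 and 330, young C 151 and 67, aged A 863 and 522, aged B 894 and 608, and aged C 351 and 194; the cause was not tested. The sign turned for Ftl1 with limma-voom (-0.048), upper-quartile scaling (-0.051) and in fits without a sample (-0.039 to 0.08), and for Ncoa4 in fits without a sample (-0.044 to 0.218), and neither gene passed there. The difference between aged and young samples in the log2 ratio stayed between 0.43 and 0.62 for Fth1 to Ftl1 and between 0.16 and 0.63 for Slc11a2 to Slc11a1.

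With the set letter as replicate block, the members gave 3 higher and 1 lower again, and of the named genes Lcn2 (adjusted p = 0.0720) and Hp (0.0648) lost their calls. Deviations of same-lettered samples correlated at 0.18 (A), -0.02 (B) and 0.11 (C), and young B and C each correlated best with another letter, so the letters were not taken to pair the samples. Depth limits Cp, which had at most 9 counts a sample.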
